A study of Mus musculus with 4 samples.

Results

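The proteasome genes were the 46 mouse genes whose platform symbol starts with Psma, Psmb, Psmc, Psmd, Psme or Psmg, read by 59 probes that each name a single gene, among 13544 genes measured on the same arrays. All 46 had a value on every array, so no filter removed any. Liver RNA of male C57Bl/6J mice was compared on 4 arrays of 2 colours, 1 for each diet and duration. The mice ate an atherogenic diet (plain below) or an atherogenic diet with high fat (high-fat below) for 6 or 24 weeks, and that RNA carried Cy5. RNA of mice on standard chow carried Cy3 on every array. The chow was given for the matching duration, except on the plain 6-week array, where its duration is not given in the sources used here. Diet composition, the number of mice behind an RNA and any sharing of chow RNA between arrays are not given there either. The arrays give ratios without levels, so the tissue could not be checked against absolute marker levels, and in whole liver fewer cells of a type and less RNA per cell cannot be told apart.

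The proteasome degrades proteins tagged with ubiquitin. Its 20S core is a barrel of alpha rings (Psma genes) that gate entry and beta rings (Psmb genes) that hold the proteases, and its 19S cap binds and unfolds substrates with ATPases (Psmc genes) and other subunits (most Psmd genes). Cells of the immune system, and other cells exposed to interferon gamma, replace the catalytic subunits Psmb5, Psmb6 and Psmb7 with Psmb8, Psmb9 and Psmb10, and make the PA28 activator of Psme1 and Psme2. The resulting immunoproteasome is known for producing peptides for MHC class I.

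Values are log2 ratios of diet over chow. A gene is the mean of its probes, and ± is the standard error of limma, a linear model with variance shared across genes, over 4 arrays. Calls use an adjusted p of 0.05 over all genes. The direction follows the dyes in the labels; the base of the deposited logarithms is not stated there, and 10, inferred from their spread, sets the folds. Median ratios over all probes lay between -0.06 and 0.02 on the arrays, and their SD between 0.37 and 0.53, smaller on both high-fat arrays. With a single array for a condition, p-values reflect how far the 4 conditions differ and not the spread between animals.

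Psmb10 was the proteasome gene with the highest mean ratio, and Psme1 and Psmb8 rose with it, while Psmb9 and Psme2 did not pass. Psmb10 stood at 1.12 and 0.78 on the plain arrays at 6 and 24 weeks and at 0.95 and 0.90 on the high-fat arrays. Every array thus lay well above chow, and the diets overlapped. Its mean was 0.94 ± 0.09 (limma adjusted p = 0.00339), a 1.91-fold rise, rank 156 from the top of 13544 genes. Both of its probes were above chow on all 4 arrays, with means of 0.75 and 1.13. Of the 7 members called, Psmb10 was the 1 that stayed called whichever array was left out (adjusted p between 0.00736 and 0.0285).

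Psme1, the alpha subunit of PA28, had the smallest spread among these 5 genes. It stood at 0.57 and 0.59 on the plain arrays, and at 0.47 and 0.65 on the high-fat arrays, with a mean of 0.57 ± 0.08 (limma adjusted p = 0.0106). Its value on the plain 24-week array lay within 0.003 (log10) of a value repeated by 63 probes there, where neighbouring values held a median of 30, and in a fit without such probes Psme1 is not tested. Without that array its mean was 0.56 and did not pass (adjusted p = 0.0627). Psme2, the beta subunit that joins Psme1 in the same ring, stood at 0.35 and 0.06 on the plain arrays, and at 0.14 and -0.09 on the high-fat arrays. Its values spread around chow, and its mean of 0.11 ± 0.10 did not pass (limma adjusted p = 0.463). In the RefSeq table of GRCm38.p6 the genes of this pair lie close together, with Emc9 (0.06 ± 0.08, not called) between them.

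Psmb8 stood at 0.54 and 0.53 on the plain arrays, and at 0.18 and 0.50 on the high-fat arrays. The high-fat 6-week value was the low one, and the other 3 lay close together. Its mean was 0.44 ± 0.10 (limma adjusted p = 0.034). The call was lost without the plain 6-week (adjusted p = 0.0774), the plain 24-week (0.138) or the high-fat 24-week array (0.109).

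Psmb9 stood at 0.57 and 0.14 on the plain arrays, and at 0.32 and 0.12 on the high-fat arrays, all above chow. The mean of 0.29 ± 0.10 did not pass (limma adjusted p = 0.116). Its 3 probes disagreed by over 1 log2 unit, with means of 0.85, 0.17 and -0.16. The probe listed with a RefSeq transcript was the high one, at 1.50 and 0.55 on the plain arrays, against 0.76 and 0.58 on the high-fat arrays, and it passed in a fit over all probes (adjusted p = 0.0266). Which probe follows the transcript was not tested. Psmb9 was the 1 member, among 10 with several probes, whose probe means differed by over 0.5.

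Psmb8 and Psmb9 lie in the MHC region beside the genes of the peptide transporter TAP, in the order Psmb9, Tap1, Psmb8, Tap2. Tap1 stood at 0.89 and 0.44 on the plain arrays, and at 0.11 on each high-fat array (mean 0.39 ± 0.15, limma adjusted p = 0.13). Tap2 was below chow on all 4 arrays, at -0.47 and -0.20 for plain, and at -0.11 and -0.29 for high-fat (mean -0.27 ± 0.09, adjusted p = 0.106). Adjacent genes of this block therefore did not share a direction on these probes, and neither transporter gene passed. Within 4 genes of Psmb8, H2-DMb1 (1.30 ± 0.22, limma adjusted p = 0.0179), H2-Ab1 (1.41 ± 0.11, 0.00224) and H2-Aa (2.29 ± 0.20, 0.00247) rose. In the same stretch H2-DMb2 (0.56 ± 0.20) and H2-Ob (0.12 ± 0.17) did not pass.

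Windows from 250 bases before to 50 after the gene start (RefSeq, GRCm38.p6) are shown for Psmb8, Psmb10 and Psme1, which rose, and for Psmb9, which did not pass. Each window was searched on both strands for GAAA followed by any 2 bases and GAAA (an interferon-stimulated response element, ISRE), TTCNNNGAA (a gamma-activated site, GAS) and TGACNNNGC (an antioxidant response element, ARE). Capitals mark a match, and no printed matches overlap. Psmb8 (chr17:34197945-34198244, plus strand) held a GAS match starting 97 bases before the gene start. Psme1 (chr14:55578244-55578543, plus strand) held an ISRE match starting 9 bases after it, read on the opposite strand. The windows of Psmb9 (chr17:34187281-34187580, minus strand), which reaches into the start of Tap1, and of Psmb10 (chr8:105938343-105938642, minus strand) held none of the 3 patterns.
Psmb8: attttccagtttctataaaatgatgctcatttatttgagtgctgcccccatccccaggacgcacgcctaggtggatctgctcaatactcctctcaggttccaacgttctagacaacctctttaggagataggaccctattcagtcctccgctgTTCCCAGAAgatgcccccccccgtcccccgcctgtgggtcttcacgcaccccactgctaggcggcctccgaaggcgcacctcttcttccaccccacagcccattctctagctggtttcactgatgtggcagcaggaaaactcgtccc
Psmb9: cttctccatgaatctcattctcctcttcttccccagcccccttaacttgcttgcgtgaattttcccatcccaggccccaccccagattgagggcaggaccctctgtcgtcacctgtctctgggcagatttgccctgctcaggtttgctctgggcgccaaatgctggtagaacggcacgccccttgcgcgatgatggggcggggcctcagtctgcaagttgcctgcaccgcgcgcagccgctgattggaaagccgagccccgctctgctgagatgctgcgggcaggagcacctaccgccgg
Psmb10: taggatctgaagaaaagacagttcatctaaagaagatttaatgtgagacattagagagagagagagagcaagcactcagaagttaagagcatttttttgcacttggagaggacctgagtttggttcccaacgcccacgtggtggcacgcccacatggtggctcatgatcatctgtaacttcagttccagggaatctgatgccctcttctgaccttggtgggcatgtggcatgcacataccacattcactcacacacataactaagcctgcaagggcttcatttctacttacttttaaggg
Psme1: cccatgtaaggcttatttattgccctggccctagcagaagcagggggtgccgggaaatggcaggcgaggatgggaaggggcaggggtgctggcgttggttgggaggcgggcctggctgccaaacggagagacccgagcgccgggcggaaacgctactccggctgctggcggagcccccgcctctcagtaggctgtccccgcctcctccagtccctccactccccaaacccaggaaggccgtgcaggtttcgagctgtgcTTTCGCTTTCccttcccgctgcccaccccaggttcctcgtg
Psme2 has 2 windows in the table, neither with a match. Of 38 members with a window searched, 4 held the ISRE letters (Psmb3, Psmd4, Psmd9 and Psme1) and 3 the GAS letters (Psmb8, Psmd2 and Psmg1). The search of members left out a single chromosome, which the shares of all genes include. Of all 27025 genes with a window, 3.99% held the ISRE pattern and 9.55% the GAS pattern (3.44% and 8.3% of all 32851 windows); a match describes letters only.

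**Figure D1:**
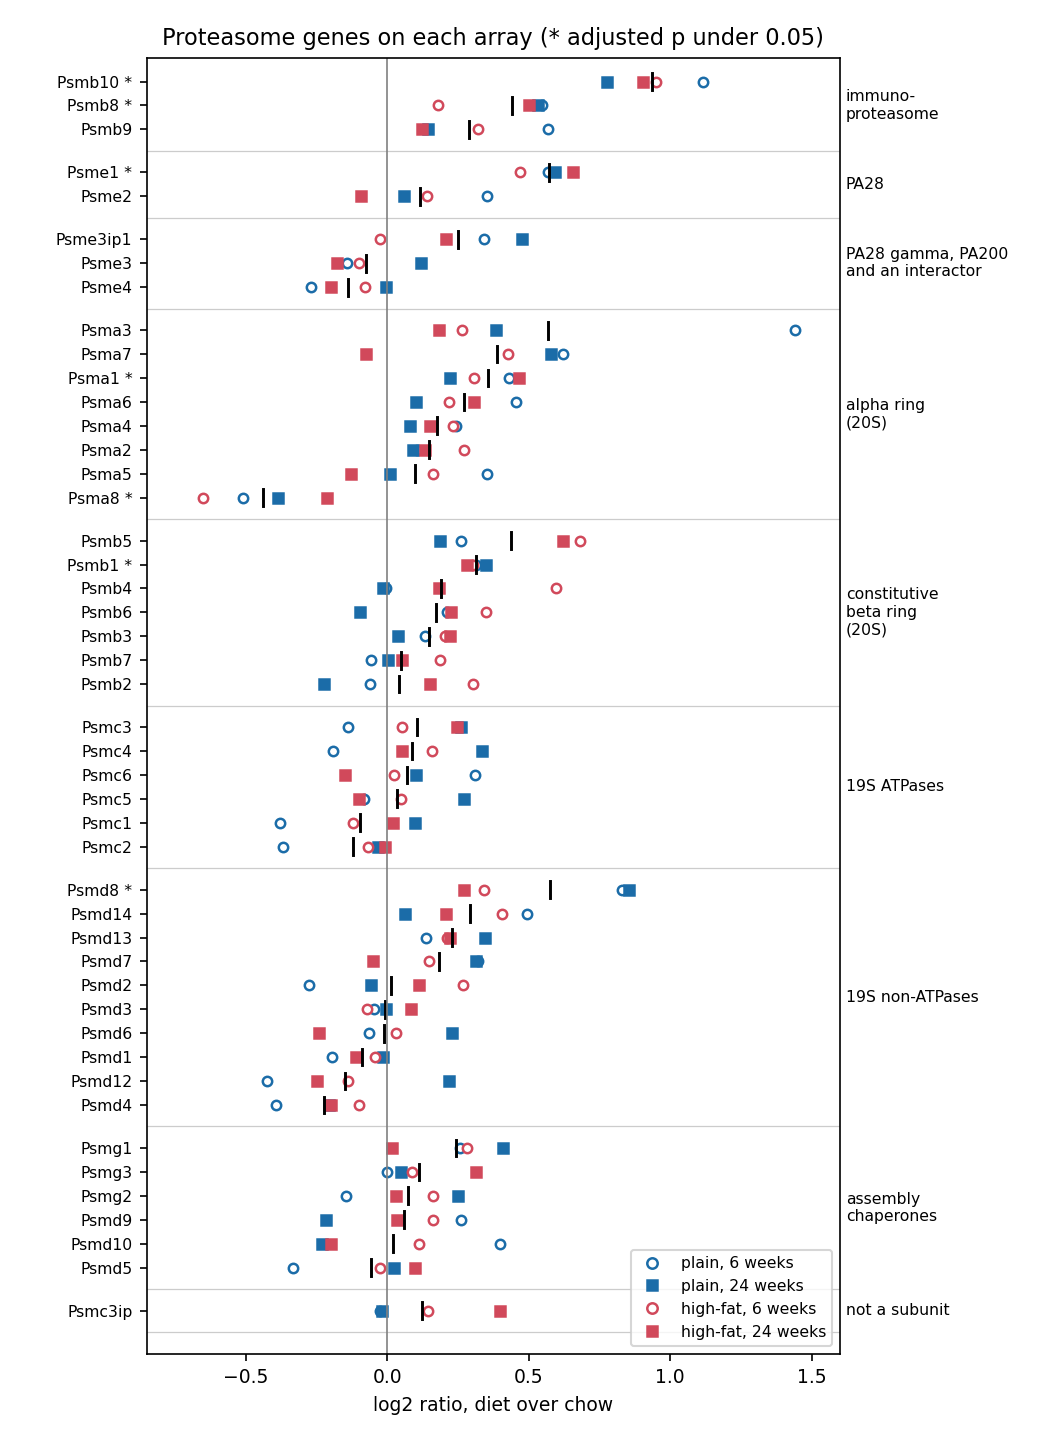
Log2 ratio of diet over chow (x axis) for each of the 46 genes, grouped by role, with 1 point per array and a bar at the mean of the 4 arrays. Blue marks the plain and red the high-fat diet, open circles 6 and squares 24 weeks, and an asterisk an adjusted p under 0.05; Psmb10 lies farthest right by its mean (0.94) and Psma8 farthest left (-0.44).

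Of the 5 immunoproteasome and PA28 genes, 3 rose, where 6.27% of all genes did. Of the 30 constitutive subunits (the Psma genes without Psma8, Psmb1 to Psmb7, and the Psmc and Psmd subunits), 3 rose, Psma1, Psmb1 and Psmd8, and none fell. On the plain arrays the median of the 5 genes was 0.57 and 0.53 at 6 and 24 weeks, and that of the constitutive subunits 0.12 and 0.10. On the high-fat arrays the 5 genes had medians of 0.32 and 0.50 and the constitutive subunits 0.21 and 0.12. The difference of medians was therefore 0.45 and 0.43 on the plain arrays at 6 and 24 weeks, 0.38 on the high-fat 24-week array and 0.11 on the high-fat 6-week array. The ranges overlapped on every array: on the plain 6-week array Psma3 (1.44) and on the plain 24-week array Psmd8 (0.85) exceeded Psmb10. On the high-fat arrays Psmb5 was the highest constitutive gene (0.68 and 0.62), below Psmb10. Above the constitutive median lay 5 and 4 of the 5 genes on the plain arrays and 3 on each high-fat array.

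The exchange was next read pair by pair, as the immunoproteasome subunit minus the constitutive subunit whose place it takes. Psmb10 exceeded Psmb7 on all 4 arrays, by 1.17 and 0.77 on the plain and by 0.76 and 0.85 on the high-fat arrays, a mean of 0.89 ± 0.19 (SD, n = 4). An exact two-sided sign-flip permutation test gave the smallest p that 4 arrays allow, which misses 0.05 and is 0.375 after adjustment over the 3 pairs. Psmb8 exceeded Psmb5 on both plain arrays, by 0.29 and 0.35, and lay below it on both high-fat arrays, by -0.50 and -0.12. The mean difference was 0.00 ± 0.39 (SD, n = 4; exact permutation p = 1). Psmb9 exceeded Psmb6 by 0.36 and 0.24 on the plain arrays and lay below it by -0.03 and -0.10 on the high-fat arrays (mean 0.12 ± 0.22, SD, n = 4; exact permutation p = 0.5). With the median of the Psmb9 probes in place of their mean the last mean difference was close to 0.

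**Figure D2:**
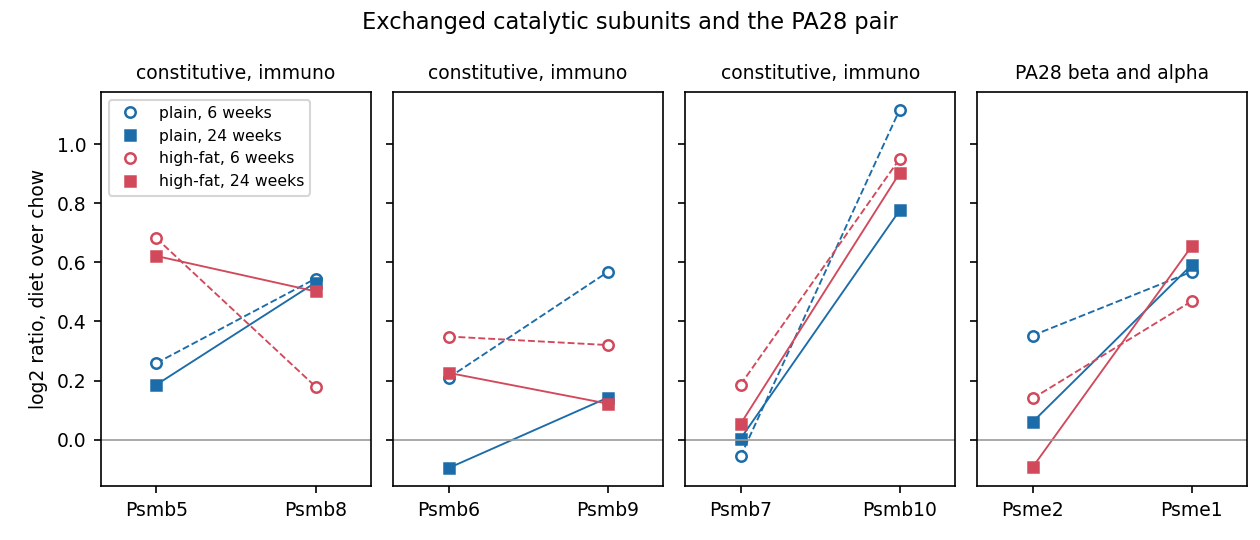
Log2 ratio of diet over chow (y axis) for each constitutive catalytic subunit beside the immunoproteasome subunit that replaces it, and for both PA28 genes, with a line per array. Psmb10 lies above Psmb7 on all 4 arrays, whereas the lines from Psmb5 to Psmb8 rise on the plain arrays and fall on the high-fat arrays.

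Over all 46 genes, 6 rose and 1 fell, 15.2% of them, where 12.1% of all genes were called in either direction. The overall count was thus near that of all genes, although 6.27% of all genes rose and 5.8% fell. An unadjusted p under 0.05 was reached by 17 members and by 30.8% of all genes. The median mean ratio was 0.11 for the 46 genes and 0.00 for all genes, and 35 of the 46 means lay above 0. On all 4 arrays 16 members were above chow (34.8%; 20.7% of all genes) and 5 were below (20% of all genes). The 5 below were Psma8, Psmc2, Psmd1, Psmd4 and Psme4.

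The alpha ring, which closes the core until a cap opens it, had 1 gene up, Psma1, and 1 down, Psma8, of 8 (6.27% and 5.8% of all genes). Psma1 stood at 0.43 and 0.22 on the plain and at 0.31 and 0.47 on the high-fat arrays (0.36 ± 0.08, limma adjusted p = 0.0429). Psma8, an alpha subunit known from the testis, stood at -0.51 and -0.39 on the plain and at -0.65 and -0.21 on the high-fat arrays (-0.44 ± 0.10, adjusted p = 0.0365). Each of these calls was lost whichever array was left out (adjusted p at least 0.0879 for Psma1 and 0.0596 for Psma8). Psma1 and Psma8 moved in opposite directions with all arrays on 1 side of chow.

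The highest alpha ring mean, 0.57 ± 0.21 for Psma3, did not pass (adjusted p = 0.128). Psma3 stood at 1.44 on the plain 6-week array, but at 0.39 on the plain 24-week and at 0.26 and 0.18 on the high-fat arrays, so its mean rests largely on 1 array. Psma7 stood at 0.62 and 0.58 for plain, and at 0.43 and -0.08 for high-fat (0.39 ± 0.13, not called). Its plain 24-week value also lay at the repeated value named for Psme1. The means of Psma2, Psma4, Psma5 and Psma6 lay between 0.10 and 0.27. Without Psma8 the ring had a median of 0.43 on the plain 6-week array and of 0.26, 0.15 and 0.10 on the high-fat 6-week, high-fat 24-week and plain 24-week arrays.

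The constitutive beta ring had 1 gene up of 7, Psmb1, and none down (6.27% and 5.8% of all genes). Psmb1 was nearly flat over the conditions, at 0.31 and 0.35 on the plain and at 0.30 and 0.28 on the high-fat arrays (0.31 ± 0.08, limma adjusted p = 0.0462), and its call was also lost without any 1 of the arrays (adjusted p at least 0.0806). Psmb5, the chymotrypsin-like protease of the core, reached 0.44 ± 0.11, just short of the threshold (adjusted p = 0.0532); it passed with each array centred on its median (0.0491). The other 5 had means between 0.04 (Psmb2) and 0.19 (Psmb4). Over the 14 genes of both rings without Psma8, 8 were above chow on all 4 arrays, where 20.7% of all genes were, and the same 8 genes were with arrays centred or scaled.

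None of the 6 ATPases of the 19S cap, the ring that unfolds substrates, passed (12.1% of all genes did), with means from -0.12 (Psmc2) to 0.10 (Psmc3). On the plain 6-week array 5 of the 6 were below chow, at -0.08 to -0.38, and Psmc6 stood at 0.31. On the plain 24-week array 5 were above chow, between 0.10 and 0.34, and Psmc2 stood at -0.03. The ATPase median was thus -0.17 on the first of these arrays and 0.18 on the second, and 0.03 and 0.00 on the high-fat arrays.

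Of 10 other cap subunits, 1 rose and none fell (6.27% and 5.8% of all genes). Psmd8, a subunit of the lid that lies over the ATPases, stood at 0.83 and 0.85 on the plain and at 0.34 and 0.27 on the high-fat arrays. The diets did not overlap. Its mean was 0.57 ± 0.13 (limma adjusted p = 0.0369), a call lost without the plain 6-week (adjusted p = 0.086), the high-fat 6-week (0.0597) or the plain 24-week array (0.148). Psmd14, the enzyme that removes ubiquitin chains at the cap, was above chow throughout, at 0.49 and 0.06 on the plain and at 0.41 and 0.21 on the high-fat arrays (0.29 ± 0.10, not called). Psmd13, another lid subunit, lay between 0.14 and 0.35 (0.23 ± 0.08, not called).

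Psmd4, a receptor for ubiquitin chains, had the lowest mean in the cap. It stood at -0.40 and -0.21 on the plain and at -0.10 and -0.20 on the high-fat arrays, a mean of -0.23 ± 0.09 that did not pass (limma adjusted p = 0.134). Its 4 probes had means between -0.33 and -0.14. The lid subunit Psmd12 stood at -0.43 on the plain 6-week and at 0.22 on the plain 24-week array, with -0.14 and -0.25 on the high-fat arrays (-0.15 ± 0.12). The scaffold subunits Psmd1 and Psmd2, and Psmd3, Psmd6 and Psmd7, had means between -0.09 and 0.18. Of the 16 cap genes, 3 were above chow on all 4 arrays and 3 below, near the 20.7% and 20% of all genes.

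The remaining members also gave no call, where 12.1% of all genes were called. PA28 gamma (Psme3), a nuclear activator, had a mean of -0.08 ± 0.09, and the activator PA200 (Psme4) lay below chow on all 4 arrays, between -0.27 and -0.01 (-0.14 ± 0.09, limma adjusted p = 0.314). Psme3ip1, which binds PA28 gamma, stood at 0.34 and 0.47 with the plain and -0.02 and 0.21 with the high-fat diet (0.25 ± 0.10). The assembly chaperones Psmg1, Psmg2 and Psmg3 of the core and Psmd5, Psmd9 and Psmd10 of the cap had means between -0.06 (Psmd5) and 0.24 (Psmg1). Psmc3ip, a meiotic recombination factor that shares only the prefix, had a mean of 0.12 ± 0.10.

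**Figure D3:**
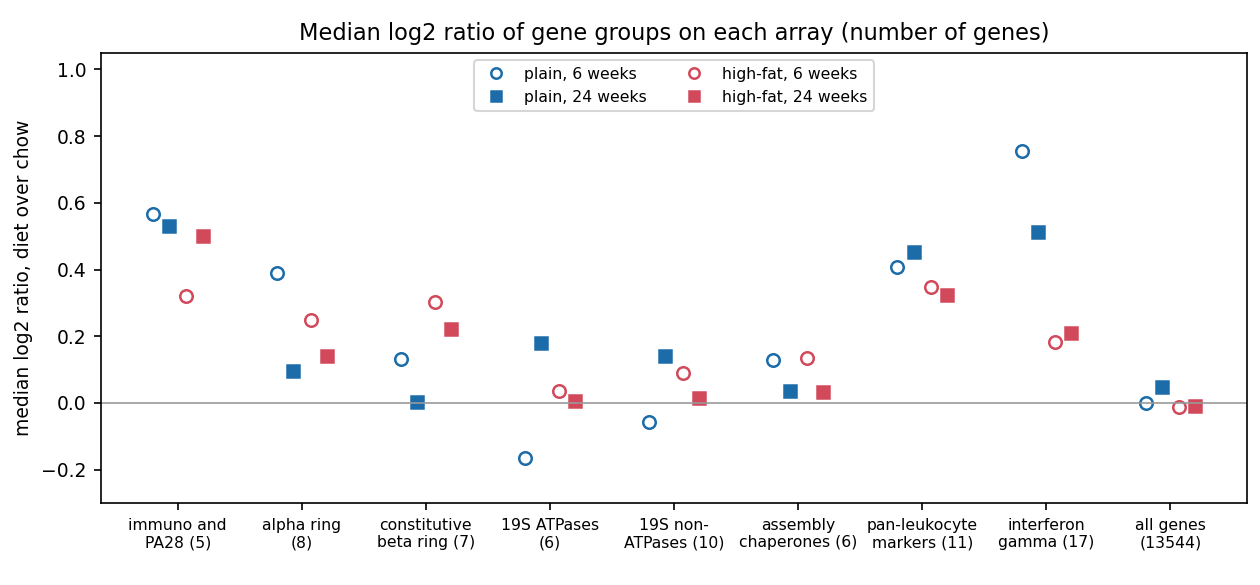
Median log2 ratio of diet over chow (y axis) of gene groups on each of the 4 arrays, with the number of genes under each group. The 5 immunoproteasome and PA28 genes lie between 0.32 and 0.57, the 19S ATPases between -0.17 and 0.18, and all 13544 genes between -0.01 and 0.05.

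The second comparison asked what the added high fat changed, as high-fat minus plain within each duration. No member passed (0 of 46 in limma, where 10.8% of all genes did, 3.72% higher and 7.1% lower with high fat), and the smallest adjusted p was 0.0516. An unadjusted p under 0.05 was reached by 6 members (32.6% of all genes), Psmb2, Psmb4 and Psmb5 on the higher side and Psma3, Psma7 and Psmd8 on the lower. Both high-fat arrays lay below both plain arrays for 8 members (36.4% of all genes). The smallest adjusted p belonged to Psmd8, lower with high fat by -0.53 ± 0.14, and it passed with arrays centred on their median (-0.59, adjusted p = 0.0439). The fit leaves 1 residual degree of freedom, the interaction of diet and duration.

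The constitutive beta ring nevertheless had a shared order of the diets. Psmb2, which carries no catalytic site, stood at -0.06 and -0.23 on the plain and at 0.30 and 0.15 on the high-fat arrays. Psmb4 stood at -0.01 and -0.02 on the plain and at 0.59 and 0.18 on the high-fat arrays. Psmb5 stood at 0.26 and 0.19 on the plain and at 0.68 and 0.62 on the high-fat arrays. For each of these genes the diets did not overlap, with differences of 0.37 ± 0.14 for Psmb2 (limma adjusted p = 0.114), 0.40 ± 0.16 for Psmb4 (0.129) and 0.43 ± 0.14 for Psmb5 (0.083).

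In Psmb3, Psmb6 and Psmb7 too, both high-fat arrays lay above both plain arrays, by mean differences of 0.13, 0.23 and 0.15, none of them called. That made 6 of 7 beta ring genes, where 11 of all 46 members (23.9%) and 25% of all genes had this order. The exception was Psmb1, at -0.04 ± 0.14. With arrays centred on their median the count was 4 of 7 (Psmb2, Psmb4, Psmb5 and Psmb7; 20.8% of all genes), and with arrays also scaled to a common spread it was 7 of 7 (20.3%), where Psmb5 passed (0.59, adjusted p = 0.0319). The order therefore depended in part on how arrays were centred, and it was chosen for description after the values were seen. The alpha ring without Psma8 had 1 such gene of 7, Psma2, and the 5 immunoproteasome and PA28 genes had none, or 2 (Psmb10 and Psme1) with arrays scaled.

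The windows of Psmb5 and Psmb6 are shown because ARE letters lay near the start of both and both ranked higher with high fat. Both were thus picked by these values, and a link of letters and diet was not tested. The difference of Psmb6 did not pass (0.23 ± 0.14, limma adjusted p = 0.295), and its order was lost with arrays centred on their median. Psmb3, which had the same order before centring, was searched and held no ARE letters. In Psmb5 (chr14:54617946-54618245, minus strand) the match started 47 bases before the gene start, and in Psmb6 (chr11:70525107-70525406, plus strand) 9 bases before it, and capitals mark it.
Psmb5: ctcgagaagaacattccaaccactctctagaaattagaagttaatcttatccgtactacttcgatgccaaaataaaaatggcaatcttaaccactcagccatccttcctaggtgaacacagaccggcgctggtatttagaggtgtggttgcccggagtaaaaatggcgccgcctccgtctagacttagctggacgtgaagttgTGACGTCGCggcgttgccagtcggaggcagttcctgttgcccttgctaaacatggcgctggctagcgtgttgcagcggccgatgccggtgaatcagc
Psmb6: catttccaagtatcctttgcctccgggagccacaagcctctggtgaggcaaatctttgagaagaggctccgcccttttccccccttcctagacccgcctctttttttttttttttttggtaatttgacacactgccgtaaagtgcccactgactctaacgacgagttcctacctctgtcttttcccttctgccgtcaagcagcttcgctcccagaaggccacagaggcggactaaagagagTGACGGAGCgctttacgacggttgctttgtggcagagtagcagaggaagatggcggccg
Of the 38 members searched, 6 held these letters (Psmb5, Psmb6, Psmc6, Psmd9, Psmd12 and Psme4), as did 14% of all genes with a window (12.4% of windows). Psmc6 and Psmd12, which also hold them, stood at -0.27 ± 0.14 and -0.09 ± 0.20 for added high fat. Psmd9 stood at 0.07 ± 0.15 and Psme4 at -0.002 ± 0.15. None of these differences was called.

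**Figure D4:**
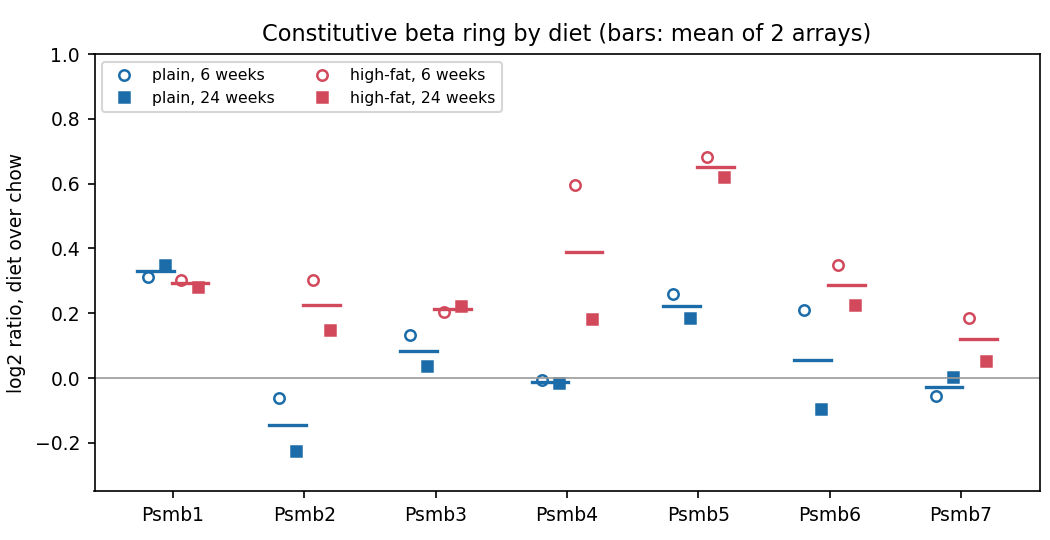
Log2 ratio of diet over chow (y axis) of the 7 constitutive beta ring genes, with 1 point per array and a bar at the mean of both arrays of a diet, blue for plain and red for high-fat. Red points lie above blue points for every gene but Psmb1 (for 4 of 7 genes with arrays centred, 7 of 7 with arrays scaled), by 0.68 and 0.62 against 0.26 and 0.19 for Psmb5.

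The third comparison asked what differed between 24 and 6 weeks. No member passed, as no gene did (0 of 13544 in limma, 0%; unadjusted p under 0.05 for 2 members and for 9.81% of all genes). The widest differences were Psma3, lower at 24 weeks by -0.57 ± 0.23, and the cap chaperone Psmd10, lower by -0.47 ± 0.15 (limma adjusted p = 0.404). Psmd10 stood at 0.40 and 0.11 at 6 weeks and at -0.23 and -0.20 at 24 weeks. Both 24-week arrays lay above both 6-week arrays for 8 members (13.9% of all genes) and below them for 8 (10.4% of all genes).

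Genes that work with the proteasome were read from a list. Of 19 measured partners 2 rose and none fell, where 6.27% of all genes rose and 5.8% fell. The same shares stand beside the counts of the further lists below. Sem1, a small lid subunit, stood at 0.54 and 0.57 on the plain and at 0.35 and 0.41 on the high-fat arrays (0.47 ± 0.08, limma adjusted p = 0.0197), and its call was lost without the high-fat 6-week (0.0536), the high-fat 24-week (0.067) or the plain 24-week array (0.0964). Nfe2l2, a transcription factor that binds AREs, rose by 0.71 ± 0.18 (adjusted p = 0.0489). It stood at 0.68 and 1.38 with the plain and 0.32 and 0.44 with the high-fat diet. Its difference for added high fat did not pass (limma adjusted p = 0.055), and a link to the beta ring values was not tested. Its call over chow was lost with arrays centred (adjusted p = 0.0571), with robust eBayes (0.0515), in the fit over all probes (0.051) and without any 1 of the arrays (0.0578 to 0.105). Of 2 measured genes of the ubiquitin list, the activating enzymes Uba3 (0.20 ± 0.08) and Uba7 (-0.12 ± 0.12), neither passed.

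In the MHC class I list, 2 of 15 rose and 1 fell, and the median of means was -0.02. The peptide-loading chaperone Pdia3 rose by 0.58 ± 0.11 and the class I molecule H2-T23 by 0.51 ± 0.11, while Tapbpl, a peptide editor, fell by 0.46 ± 0.11 (limma adjusted p = 0.0474). The Tapbpl call was lost with arrays centred (0.0518), in the fit over all probes (0.0543) and without any 1 of the arrays (0.0533 to 0.157). Leaving out an array also ended the call of Pdia3, except without the plain 6-week array (up to 0.0703), and of H2-T23, except without the high-fat 6-week array (up to 0.131). In the interferon gamma list 2 of 17 rose and 1 fell, with a median of means of 0.44, and 15 means lay above 0. The largest means, Cxcl9 (1.39 ± 0.42) and Gbp3 (1.31 ± 0.39), were above chow on all 4 arrays but did not pass (limma adjusted p = 0.0796 and 0.077). Cxcl9 stood at 2.86 and 0.24 on the plain and at 1.90 and 0.54 on the high-fat arrays. Gbp3 stood at 2.97 and 0.96 on the plain and at 0.90 and 0.42 on the high-fat arrays. The mean of Cxcl10 lay below 0 (-0.42 ± 0.21, adjusted p = 0.221). All of these were named after their values were seen. The transcription factor Irf8 rose by 0.65 ± 0.13 and the receptor chain Ifngr2 by 0.44 ± 0.11, and Ifng itself stood below chow at -0.38 ± 0.09 (adjusted p = 0.0431). The Ifngr2 call was lost with arrays centred (0.0624), with robust eBayes (0.0503), in the fit over all probes (0.0553) and without any 1 of the arrays (0.0683 to 0.168). The Ifng call was lost in the fit over all probes (0.0539) and without any 1 of the arrays (0.0732 to 0.145), and that of Irf8 without the plain 24-week (0.104) or the high-fat 24-week array (0.0626). The medians of this list were 0.75 and 0.51 on the plain and 0.18 and 0.21 on the high-fat arrays.

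Immune cells carry the immunoproteasome at rest, so markers of such cells were set beside it. Of 11 pan-leukocyte markers 4 rose and 1 fell, Rac2 (-0.53 ± 0.09), which was named after its values were seen. Cd53 rose by 1.33 ± 0.12, the actin regulator Coro1a by 1.30 ± 0.15, Arhgdib by 1.22 ± 0.20 and Cd48 by 0.95 ± 0.13 (limma adjusted p = 0.00953 for Cd48). List medians were 0.41 and 0.45 on the plain and 0.35 and 0.32 on the high-fat arrays. Of 13 macrophage markers 7 rose and 1 fell, the resident macrophage gene Vsig4 (-1.33 ± 0.28, also named after its values were seen), with array medians from 0.59 to 1.01, led by the protease Ctss (2.32 ± 0.17), Lyz1 (2.22 ± 0.08), Clec7a (2.19 ± 0.29) and C1qb (1.74 ± 0.17). Of 14 markers of T, B and NK cells 2 rose and none fell, the granule proteins Nkg7 (0.46 ± 0.11) and Gzma (0.36 ± 0.09), with array medians from 0.01 to 0.13. The Gzma call was lost in the fit over all probes (0.0599) and without any 1 of the arrays (0.0508 to 0.168), and that of Nkg7 with arrays centred (0.0511) and when any array but the high-fat 6-week one was left out (up to 0.157). Without the plain 24-week array Cd48 (0.0673), Arhgdib (0.0943) and Clec7a (0.0625) also lost theirs. No alternative was run for Rac2 or Vsig4.

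Hepatocyte markers, of which 1 rose (Apoh, 1.09 ± 0.21) and 1 fell (Apoc3, -0.54 ± 0.11) of 17, had medians of 0.05 and 0.34 on the plain and -0.80 and -0.41 on the high-fat arrays. Apoh lost its call without the high-fat 6-week (0.0587) or the plain 24-week array (0.088), and Apoc3 when any array but the plain 6-week one was left out (up to 0.112). For added high fat this list went both ways: 9 of 17 passed, 7 lower and 2 higher, F2 (0.62 ± 0.14, limma adjusted p = 0.0377) and Pck1 (0.96 ± 0.14, adjusted p = 0.0201), both named after their values were seen. Calls for added high fat also came from other lists (10.8% of all genes). Called lower were 4 of 17 interferon gamma, 3 of 11 pan-leukocyte and 3 of 13 macrophage genes. In the MHC class I list H2-K1 was called higher (0.64 ± 0.14), and B2m (-0.95 ± 0.19) and Erap1 (-0.79 ± 0.14) lower. These 3 were named after their values were seen. Of 19 partners 1 passed, and none of 14 T, B and NK markers. Leukocyte and macrophage marker medians stood above chow on all 4 arrays, as did Psmb10, Psme1 and Psmb8. Both high-fat arrays lay below both plain arrays for 9 of 11 pan-leukocyte and 7 of 13 macrophage markers (36.4% of all genes). Psmb8 had this order, and Psmb10 and Psme1 did not. The hepatocyte median was lowest on the high-fat arrays. The part of these cell types in the proteasome values was not tested. Every array carried the diet RNA in Cy5, so a dye preference of a probe and a change by diet cannot be told apart.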

How the data were processed

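The authors hybridised amplified liver RNA to AceGene Mouse Oligo Chip 30K arrays, scanned them on an Agilent G2505B, read spots with GenePix Pro 4.1 and applied LOWESS in GeneSpring 7.2, per the labels and the design text deposited with them. The deposited values are signed log ratios, used as log10 of Cy5 over Cy3 and converted to log2 here; the base, background correction, spot filters and further centring are not stated in these sources. Median deposited values were -0.019 and -0.005 on the plain and 0.006 on each high-fat array (6 and 24 weeks). The interquartile range of the plain 6-week array spans a 13.5% difference if the base is 2 and 52.4% if it is 10. The number of arrays limits precision.

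Probes with a missing value (975 of 28845) were left out. Of all probes 17637 had 1 platform symbol, 64 had several and 11144 had none listed; 252 of the first were left out because their gene identifier did not match the RefSeq table of GRCm38.p6. Array coordinates are not given, since no build is named. Tests used limma 3.58.1 in R 4.3.3 (lmFit, eBayes, two-sided, Benjamini-Hochberg over 13544 genes): the mean of 4 arrays against 0 (3 residual degrees of freedom), and an additive model of high fat and duration (1). They were also run on simulated data with independent errors of the same spread on every array. The arrays here differ in spread, so that run cannot show that the calls hold for them. Members and lists were chosen with earlier results of these data known. Named were the genes of the immunoproteasome and PA28 with their counterparts, members past the threshold, the 4 highest and 4 lowest means, members whose probes differ by over 1, and up to 4 called genes per further list, or the 2 largest.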

Additional observations from a re-analysis of the deposited data

Results flagged for a closer look

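Some members lay on opposite sides of chow in both arrays of each diet or of each duration; these differences were tested as model terms in limma and did not pass. By diet these were Psmb2 (plain -0.06 and -0.23, high-fat 0.30 and 0.15; difference 0.37, adjusted p = 0.114), Psmb4 (difference 0.40, adjusted p = 0.129), Psmd2 (plain -0.28 and -0.06, high-fat 0.27 and 0.11; difference 0.36, adjusted p = 0.159) and Psmc3ip (plain -0.03 and -0.02, high-fat 0.14 and 0.40; difference 0.29, adjusted p = 0.203). By duration they were Psmc1 (6 weeks -0.38 and -0.12, 24 weeks 0.10 and 0.02; difference 0.31, adjusted p = 0.555), Psmd10 (difference -0.47, adjusted p = 0.404) and Psmd5 (6 weeks -0.33 and -0.03, 24 weeks 0.02 and 0.10; difference 0.24, adjusted p = 0.637). Neither of the 2 probes of Psmd5 showed that order by itself: one stood at -0.06 and -0.41 at 6 weeks and 0.10 and -0.30 at 24 weeks (plain, then high-fat), the other at -0.61 and 0.36, then -0.05 and 0.49. Their differences by added high fat were opposite, -0.37 and 0.75, so the order of Psmd5 arises from averaging them.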

How the results depend on the processing

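For diet over chow 7 members were called, and the count stayed between 6 and 8 with arrays centred or scaled, probe medians, missing values kept, ratios limited, robust eBayes, any probe called, an adjusted p of 0.1, or without probes at repeated values (chosen after seeing the data). With any probe called, 5 of the 7 stayed. Psma1 (limma adjusted p = 0.0553) and Psmb1 (0.0632) lost their calls there, and Psmb9 gained one (0.0266). Over all 13544 genes the main fit called 1634. The member count was 17 with diet and duration terms (5132 of all genes), and between 1 and 4 without one array. It was 1 without the plain 24-week (Psmb10, 284 of all genes), 2 without the plain 6-week (1169), 3 without the high-fat 6-week (793) and 4 without the high-fat 24-week array (753). Of the last 4, 3 were among the 7. For added high fat the count of 0 became 1 with arrays centred (Psmd8), 1 with arrays also scaled (Psmb5), 1 with probe medians (Psmd8), 2 with any probe called (Psmd5 and Psmd8) and 3 at an adjusted p of 0.1; for duration it was 0 in every setting run. Leaving out an array leaves no residual degrees of freedom for these 2 terms. The differences of medians between immunoproteasome and constitutive subunits moved by less than their SD over arrays in every setting run, though on the high-fat 6-week array the 3 catalytic subunits against their counterparts gave -0.03. Read as natural logarithms or base 2, the fold of Psmb10 would be 1.33 or 1.22, that of Psme1 1.19 or 1.13 and that of Psmb8 1.14 or 1.10. Each ratio pairs diet with chow RNA on its array, and the exchanged subunits were compared within arrays. Arrays could not be paired with each other by replicate, because the labels give no replicate numbers to use as a block. They were matched by duration only, as a model term.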
